A study of Homo sapiens with 3 samples.

Results

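The pocket proteins, the DREAM complex and the activators MYBL2 and FOXM1 were followed in etoposide-treated HepG2 cells through 9 genes: RB1, RBL1, RBL2, LIN9, LIN37, LIN52, LIN54, MYBL2 and FOXM1. Every non-control probe whose gene name on the array equals one of these symbols was taken, which gave 11 of 34127 probes and 9 of 27274 gene names. RBL1 and LIN9 had 2 probes each and the other genes 1. HepG2 is a human hepatocellular carcinoma line, and etoposide is a topoisomerase II poison that causes DNA double-strand breaks. Total RNA was taken 30 h after the cells received 0 μM etoposide (control, labelled untreated), 10 μM (low dose) or 100 μM (high dose). The study also names its control DMSO, so whether the control received vehicle is not settled here. The study set the doses apart to compare senescent with apoptotic cells. Each condition was measured on 1 one-color array, so no test between conditions was possible, no p-value is given, and all 3 arrays lay on 1 slide.

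In resting or arrested cells the pocket proteins RBL1 and RBL2 bind E2F4 or E2F5 and the MuvB core (LIN9, LIN37, LIN52, LIN54 and RBBP4) to form DREAM, which holds cell cycle genes silent. When cells commit to division, cyclin-dependent kinases phosphorylate the pocket proteins, MuvB leaves them and joins MYBL2 (B-MYB) and then FOXM1, and these assemblies switch on the genes of late S phase and mitosis. RB1 acts apart from DREAM by binding the activator E2Fs, and the CDK inhibitor CDKN1A, a target of p53, keeps pocket proteins unphosphorylated.

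The probe sequences show which stretch of an mRNA a value stands for, and they are given for both probes of RBL1, for the LIN9 probe that differed from its partner, and for the activator MYBL2. They are the 60-base probes of the array design, written 5′ to 3′ in lower case, with the positions of the files on hg18. RBL1 probe 1 lay at chr20:35060611-35060670 on the minus strand, RBL1 probe 2 at chr20:35069243-35069302 on the minus strand and MYBL2 at chr20:41777210-41777269 on the plus strand. LIN9 probe 2 ran over 638 bases at chr1:224519923-224520560 on the minus strand with only 60 bases of probe, so that it joins stretches separated in the genome.
RBL1 probe 1: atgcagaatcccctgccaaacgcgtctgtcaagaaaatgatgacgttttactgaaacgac
RBL1 probe 2: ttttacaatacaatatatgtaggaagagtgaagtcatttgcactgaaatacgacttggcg
LIN9 probe 2: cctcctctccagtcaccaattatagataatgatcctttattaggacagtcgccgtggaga
MYBL2: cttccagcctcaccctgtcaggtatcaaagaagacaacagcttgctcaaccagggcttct

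Promoter sequence was searched because DREAM and MYBL2-MuvB reach DNA through LIN54, which reads the cell cycle homology region (CHR). DREAM also reaches it through its E2F subunit. RefSeq promoters (GRCh38.p14, 250 bases before to 50 after each start) matched 8 of the 9 genes, with 13 entries. The RB1 entry, at chr13:48476200-48476499, had 38.3% GC, the lowest of the 13, and is counted below as without a match. Whether it holds the main start of RB1 was not checked, so it may not describe the RB1 promoter. The 150 bases before the start are printed for 4 genes that show the different motif matches found, with the matches in capitals. The entry of RBL1 covers chr20:37095998-37096147 on the minus strand, that of MYBL2 chr20:43666964-43667113 on the plus strand, that of LIN52 chr14:74084806-74084955 on the plus strand and that of LIN54 chr4:83010824-83010973 on the minus strand.
RBL1 promoter: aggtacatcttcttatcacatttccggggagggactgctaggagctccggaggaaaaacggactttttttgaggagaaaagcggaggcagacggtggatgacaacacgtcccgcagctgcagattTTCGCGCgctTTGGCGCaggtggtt
MYBL2 promoter: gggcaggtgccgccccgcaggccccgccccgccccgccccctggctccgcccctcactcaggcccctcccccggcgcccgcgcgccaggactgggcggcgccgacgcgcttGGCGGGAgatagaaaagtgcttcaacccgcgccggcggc
LIN52 promoter: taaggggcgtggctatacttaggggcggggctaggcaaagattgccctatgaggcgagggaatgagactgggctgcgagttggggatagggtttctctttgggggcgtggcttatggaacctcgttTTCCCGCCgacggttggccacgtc
LIN54 promoter: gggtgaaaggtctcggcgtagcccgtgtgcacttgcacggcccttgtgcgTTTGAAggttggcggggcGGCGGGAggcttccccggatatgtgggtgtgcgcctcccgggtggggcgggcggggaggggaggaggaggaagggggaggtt

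The E2F core, searched on both strands as TTGGCGC with its variants TTCCCGC, then TTCGCGC, then TTGCCGC, was found in 3 of the 13 entries (3 of 8 genes) and in 12.97% of all 35116 promoters of the same length. RBL1 held it at -25 and -15 from the start, LIN52 at -24 and LIN9 at -7. The CHR, searched as TTTGAA and TTCGAA, was found in 5 of 13 entries (4 of 8 genes) and in 16.35% of all promoters. LIN54 held it at -100, LIN9 at -60 and -3 of another entry, LIN37 at -182 and RBL2 at 25 after the start. Neither form was present in the MYBL2 window. The letters GGCGGGA, chosen after the MYBL2 promoter had been read, stood at -39 in MYBL2, in 7 of 13 entries (6 of 8 genes) and in 15.37% of all promoters. They overlap the E2F core in LIN52, whose capitals run across both. The entries of LIN54 overlap, so the same CHR and the same GGCGGGA count in each of them. Some genes have several entries, so only the counts of entries can be set beside the share of all promoters. A match is a run of letters, not a bound site. The E2F search covered only the forms named. An entry without a match, that of MYBL2 included, may therefore hold an E2F site written otherwise. Whether GGCGGGA serves as one was not tested.

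In the plot of signals by dose, the low dose left every gene within 2-fold of control cells, and at the high dose the activators MYBL2 and FOXM1 were furthest below control cells. By their brightest probes RBL1, LIN9 and LIN52 were over 2-fold lower there, and LIN54, RB1, RBL2 and LIN37 were within 2-fold. RBL1, LIN52 and LIN54 lay near the 2-fold line. RBL1 and LIN52 came within it after normexp background correction with an offset, and LIN9 probe 2 was 1.33-fold higher. Values differed within the pocket proteins and within the MuvB core, where LIN37 was 1.38-fold higher. Signals are processed array intensities in arbitrary units. Fold changes were computed after each array was divided by its 75th percentile, which was 514.0 in control cells, 536.4 at 10 μM and 432.3 at 100 μM. A raw signal and a fold change therefore need not move alike. The error given is the SD of a log2 fold change between spots of like signal on the same arrays (spot SD), which covers neither culture nor RNA preparation. Since the RNA came from whole cultures, fewer cells that express a gene and less RNA per cell cannot be told apart.

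**Figure D1:**
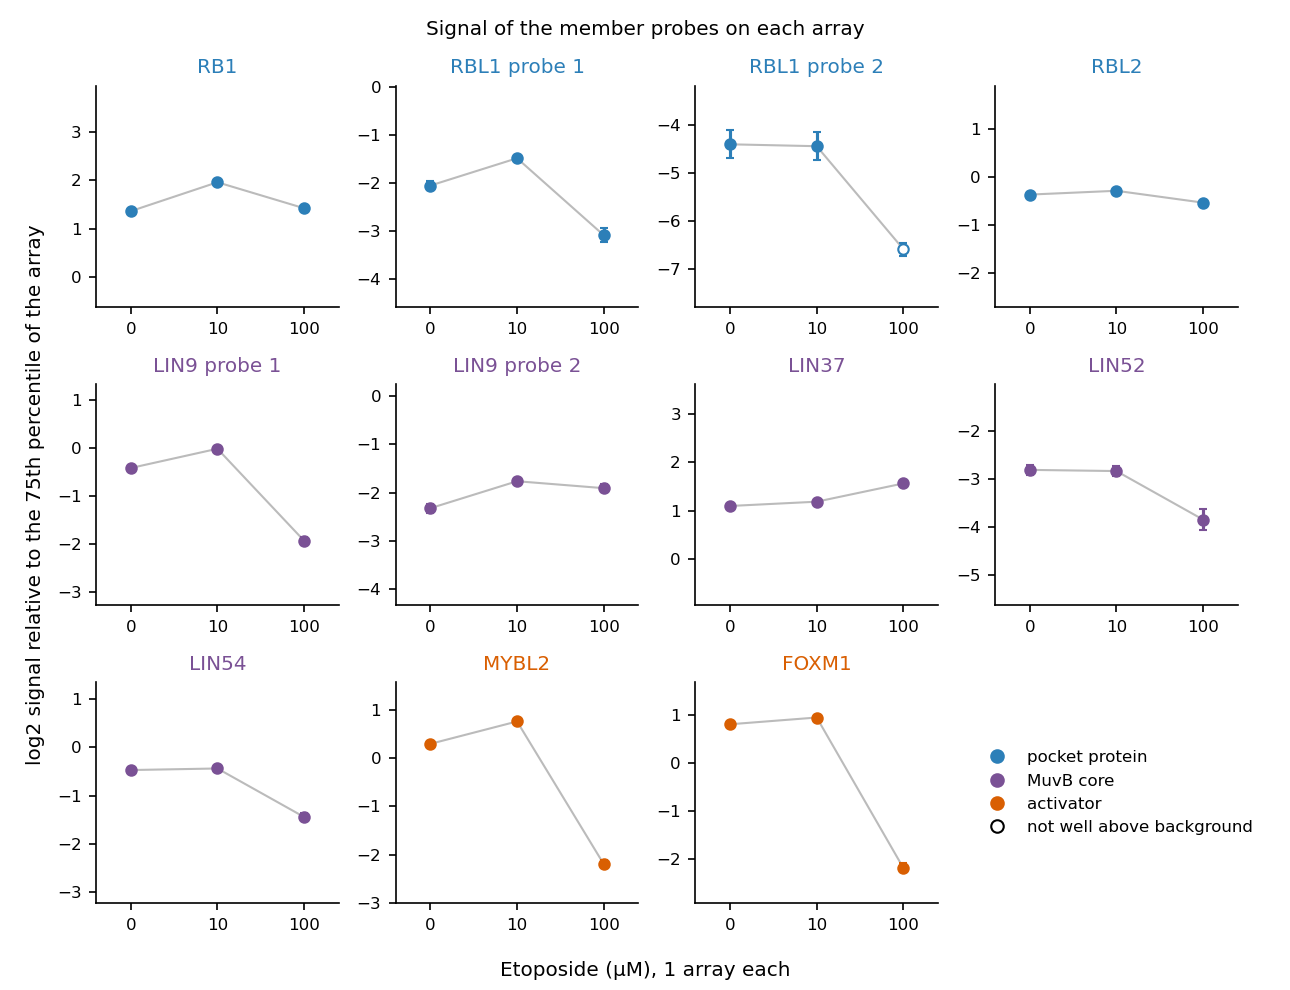
Signal of each of the 11 probes (y axis, log2 after division by the array's 75th percentile) against etoposide dose (x axis, μM), 1 array per point, with the spot-to-spot SD as error bars; all panels span the same number of log2 units. MYBL2 and FOXM1 drop furthest at 100 μM, the 2 probes of LIN9 part there, and RBL1 probe 2 is not well above background at that dose.

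Among the pocket proteins, RB1, the retinoblastoma protein that holds activator E2Fs, gave a signal of 1321 in control cells, 2090 at 10 μM and 1159 at 100 μM. The low dose stood apart, and the control and high dose were close to each other. Its probe was spotted 10 times per array, with signals of 1236 to 1396 in control cells, 2003 to 2209 at 10 μM and 1048 to 1255 at 100 μM. These spots repeat the same probe on 1 array and their signals are unscaled, so their ranges do not measure a difference between cultures. RB1 was 1.52-fold higher at 10 μM than in control cells (log2 0.60, spot SD 0.022). At 100 μM RB1 was 1.04-fold of control (log2 0.06), with a sign that turned under 3 of 6 other scalings, which gave log2 -0.23 to 0.13. Of all genes with a fold change, 91.3% were lower than RB1 in the comparison of the low dose with control cells and 47.3% in that of the high dose with control cells.

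RBL1, the pocket protein whose own gene is induced by E2F, gave 123.7 in control cells, 191.2 at 10 μM and 50.9 at 100 μM on probe 1. The low dose was the highest and the high dose the lowest of the 3 arrays. RBL1 was 1.48-fold higher at 10 μM (log2 0.57, spot SD 0.105) and 2.05-fold lower at 100 μM (log2 -1.03, spot SD 0.168) than in control cells, and it was 3.03-fold lower at 100 μM than at 10 μM. Probe 2 of RBL1, drawn from another transcript of the gene in the array design, gave 24.2, 24.6 and 4.50. It was near the lowest signal well above background (19.5 and 22.7 on the control and 10 μM arrays) and was not well above background at 100 μM. Raised to the lowest signal well above background and scaled, the array at 100 μM came out above both others, so no bound could be given there. At 10 μM it differed from probe 1 by log2 -0.61 with a spot SD of the difference of 0.42.

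RBL2, the pocket protein that predominates in DREAM of resting cells, gave 400.0 in control cells, 440.9 at 10 μM and 299.6 at 100 μM. These signals were close to each other once scaled. The fold change over control was 1.06-fold higher at 10 μM (log2 0.08, spot SD 0.071) and 1.12-fold lower at 100 μM (log2 -0.17, spot SD 0.077). RBL1 and RBL2 occupy the same place in DREAM, and at 100 μM they stood at log2 -1.03 and -0.17 over control. After normexp background correction with an offset of 50 these values were -0.42 and -0.17. That offset is near the RBL1 signal at 100 μM (50.9) and draws dim signals together by its construction. How far the gap holds was therefore not tested.

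In the MuvB core, LIN9, a scaffold subunit, gave signals of 385.0, 530.1 and 113.7 on probe 1 on the control, 10 μM and 100 μM arrays. The high dose was the lowest. By this probe LIN9 was 1.32-fold higher at 10 μM (log2 0.40, spot SD 0.071) and 2.85-fold lower at 100 μM (log2 -1.51, spot SD 0.101). Probe 2, printed above, gave 102.7, 158.0 and 115.2, with the control the lowest array. It was 1.48-fold higher at 10 μM (log2 0.56) and 1.33-fold higher at 100 μM (log2 0.42). The probes therefore ran together at 10 μM and opposite ways at 100 μM, where they differed by log2 1.93 with a spot SD of the difference of 0.163. Probe 1 begins at base 3181 of the transcript the array design names and probe 2 at base 1270. The fold change of LIN9 at 100 μM stands for probe 1, the brighter of the pair, and the mean of both probes gave log2 -0.55, which is within 2-fold.

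LIN54, the subunit that contacts the CHR, gave 371.4 in control cells, 396.5 at 10 μM and 159.0 at 100 μM. LIN52, the subunit that DYRK1A phosphorylates to assemble DREAM, gave 73.06, 74.97 and 30.07. In both genes the control and the low dose lay together and the high dose was lower. LIN54 was 1.02-fold of control at 10 μM (log2 0.03, spot SD 0.072) and 1.97-fold lower at 100 μM (log2 -0.97, spot SD 0.09). LIN52 was 1.02-fold lower at 10 μM (log2 -0.02, spot SD 0.146) and 2.04-fold lower at 100 μM (log2 -1.03, spot SD 0.251). Of all pairs of members these were the most alike in their fold changes over control, at a distance of 0.0805 log2 units. The spot SD of the gap between them was larger, at 0.163 at 10 μM and 0.267 at 100 μM. After normexp background correction LIN52 was at log2 -0.23 and LIN54 at log2 -0.69 at 100 μM, so their likeness depended on the setting. The sign of LIN52 at 10 μM turned under 2 of 6 other scalings.

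LIN37, the subunit needed for repression by DREAM, gave 1098 in control cells, 1219 at 10 μM and 1278 at 100 μM. It was the only member whose fold change over control was larger at 100 μM than at 10 μM, with 1.06-fold at 10 μM (log2 0.09, spot SD 0.063) and 1.38-fold at 100 μM (log2 0.47, spot SD 0.07). Under other scalings the value at 100 μM was log2 0.18 to 0.53. RBBP4, the histone-binding subunit shared with other chromatin complexes, was not among the chosen genes and had 4 probes, which gave log2 -0.33 to -0.56 at 100 μM.

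MYBL2, the activator that takes the place of the pocket protein on MuvB, gave 633.0 in control cells, 912.2 at 10 μM and 94.4 at 100 μM. The high dose was far below both other arrays and the low dose was the highest. MYBL2 was 1.38-fold higher at 10 μM (log2 0.47, spot SD 0.069) and 5.64-fold lower at 100 μM (log2 -2.50, spot SD 0.107), and it was 7.79-fold lower at 100 μM than at 10 μM. Only 0.507% of genes, 85 of 16779, had a lower fold change at 100 μM over control.

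FOXM1, the forkhead activator of mitotic genes, gave 896.6 in control cells, 1031 at 10 μM and 95.3 at 100 μM. The control and low dose were close to each other and the high dose was far below them. FOXM1 was 1.10-fold higher at 10 μM (log2 0.14, spot SD 0.066) and 7.92-fold lower at 100 μM (log2 -2.98, spot SD 0.106), and it was 8.72-fold lower at 100 μM than at 10 μM. Of 16779 genes, 34 had a lower fold change at 100 μM over control, which is 0.203%.

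**Figure D2:**
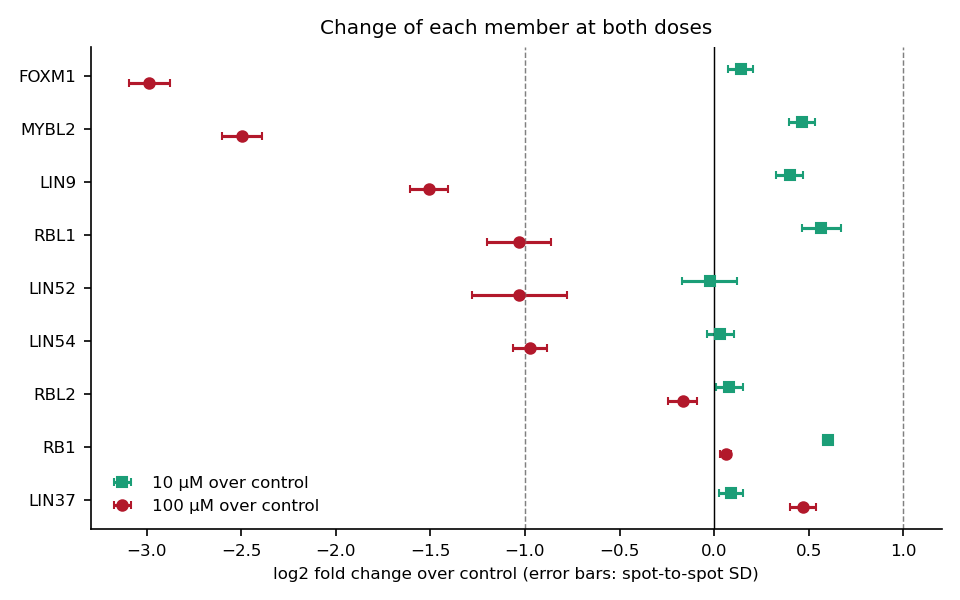
Log2 fold change of the 9 genes (x axis) at 10 μM (squares) and 100 μM (circles) over control, each from 1 array per condition, with spot-to-spot SD as error bars and dashed lines at 2-fold; genes are ordered by the value at 100 μM. FOXM1 (-2.98) and MYBL2 (-2.50) lie furthest left at 100 μM, and no gene passes 2-fold at 10 μM.

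At 10 μM 0 of the 9 genes were over 2-fold higher and 0 over 2-fold lower than in control cells, where 3.37% and 1.60% of all 16719 genes measured in that comparison were. Of the 9 genes, 8 had a log2 fold change above 0, with a median of 0.14 against -0.04 over all genes. In order from the highest they were RB1, RBL1, MYBL2, LIN9, FOXM1, LIN37, RBL2, LIN54 and LIN52. Of the steps between neighbours in this order, only that between LIN9 and FOXM1 exceeded 2 spot SDs of the difference.

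At 100 μM 0 of the 9 were over 2-fold higher than in control cells, against 6.76% of all 16984 genes measured. In the other direction 5 were over 2-fold lower (RBL1, LIN9, LIN52, MYBL2 and FOXM1), against 3.66% of all genes. LIN9 is counted and ordered by probe 1, while its probe 2 was at log2 0.42 and the mean of both was within 2-fold (log2 -0.55). The median of the 9 was log2 -1.03, and that of all genes was 0.10. From the lowest, FOXM1, MYBL2 and LIN9 were each separated from the next gene by over 2 spot SDs, RBL1, LIN52 and LIN54 were not separated from each other, and RBL2, RB1 and LIN37 followed, each separated. RBL1, LIN52 and LIN54 lay so near 2-fold that the choice of scaling set their side of it: RBL1 and LIN52 were over 2-fold lower under 5 of 6 other scalings and LIN54 under 4. After normexp background correction RBL1 was at log2 -0.42 and LIN52 at log2 -0.23.

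Between the treated arrays, 0 of the 9 genes were over 2-fold higher at 100 μM than at 10 μM, against 3.95% of all 16793 genes measured. Over 2-fold lower were 6 (RBL1, LIN9, LIN52, LIN54, MYBL2 and FOXM1), against 3.63% of all genes. LIN9 is counted by probe 1 here too, and its probe 2 gave log2 -0.14. LIN37 was the only one of the 9 with a log2 fold change above 0 (0.38). Both comparisons with control use the same control array and every pair of comparisons shares an array, so they are not independent of each other.

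**Figure D3:**
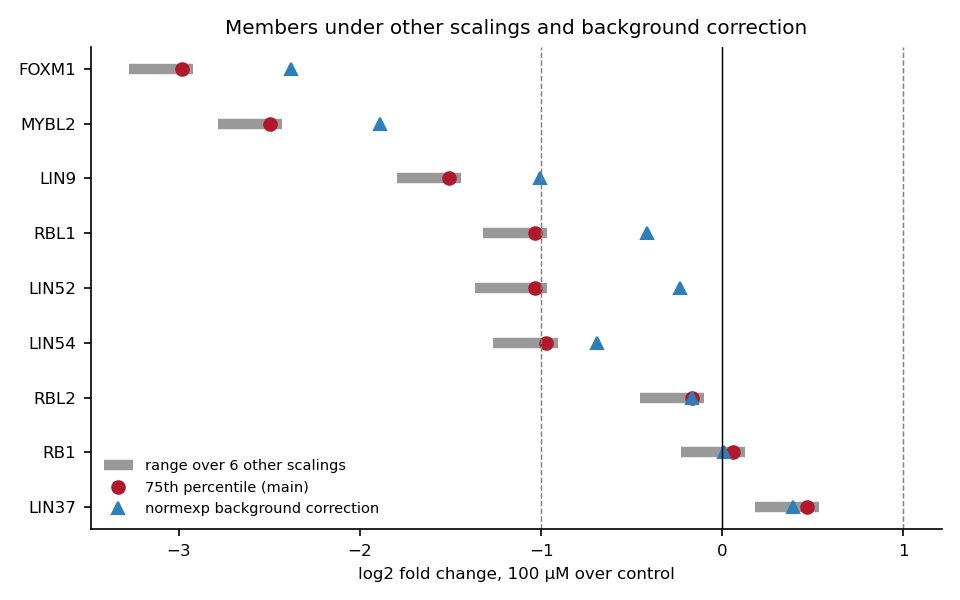
Log2 fold change of the 9 genes at 100 μM over control (x axis) under the 75th percentile scaling (circles), as the range over 6 other scalings (bars) and after normexp background correction with an offset (triangles); dashed lines mark 2-fold. LIN9, MYBL2 and FOXM1 stay below -1 throughout, and the bar of RB1 crosses 0. The circles and bars of RBL1, LIN52 and LIN54 lie about the 2-fold line. Their triangles lie within 2-fold, at -0.42, -0.23 and -0.69.

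At 100 μM the E2F and DP partners, named from a list, were nearer to control cells than the activators. E2F4, the main repressor E2F of DREAM, gave 474.0, 443.4 and 355.8, which was 1.12-fold lower at either dose once scaled. E2F5, the other E2F of DREAM, gave 417.4, 262.7 and 156.5 and was 1.66-fold lower at 10 μM (log2 -0.73) and 2.24-fold lower at 100 μM (log2 -1.17). TFDP1, the DP partner of most E2Fs, gave log2 0.26 at 10 μM and -0.57 at 100 μM. TFDP2, its paralog, gave log2 -0.11 and -0.73. DYRK1A, the kinase that acts on LIN52, gave log2 -0.16 and -0.42 on its brightest probe. Its dimmer probes gave log2 -0.57 and -0.58 at 10 μM and log2 -0.55 and 0.10 at 100 μM. The dimmest of them was not well above background at 10 μM. Of the 6 genes of this list, which counts RBBP4, 1 was over 2-fold lower at 100 μM and 0 were higher. Of all genes 3.66% were lower and 6.76% higher.

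Of the MYB family, MYBL1 (A-MYB) gave 88.0 in control cells, 214.6 at 10 μM and 44.3 at 100 μM. Its low dose stood above both others, at 2.34-fold over control (log2 1.22), and the high dose was at log2 -0.74. These values are of its brighter probe, and the other MYBL1 probe was not well above background on any array. MYB itself was not well above background on any array, so MYBL2 and MYBL1 were the members of that family measured here.

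Among 16 cyclins, kinases and inhibitors that set the phosphorylation of pocket proteins, 14 were measured in each comparison. At 10 μM 2 of the 14 were over 2-fold higher and 0 lower, against 3.37% and 1.60% of all genes. The 2 were CDKN1A, with signals of 169.8, 1407 and 1010, and the E2F-driven cyclin CCNE2, with 47.5, 138.1 and 30.4. CDKN1A was 7.94-fold higher at 10 μM and 7.07-fold higher at 100 μM. Whether it had a part in the levels of MYBL2 and FOXM1 was not tested. At 100 μM CDKN1A was the 1 gene over 2-fold higher, and 2 were lower, against 6.76% and 3.66% of all genes. The lower 2 were the cyclin CCNA2 (log2 -2.89) and the CDK4 and CDK6 inhibitor CDKN2C (log2 -2.10). CDKN1C and CDKN2B were not well above background on any array.

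The genes that MYBL2-MuvB and FOXM1 are known to switch on were read from a list of 35, and those of activator E2Fs from another 35, with 0 genes in common. Neither list holds a member. Among the MYB-MuvB and FOXM1 targets, 0 of 35 were over 2-fold higher or lower at 10 μM, with a median of log2 -0.01. The lowest were the mitotic kinases PLK1 (log2 -0.72) and AURKA (log2 -0.57) and the anaphase-promoting complex activator CDC20 (log2 -0.58), and the highest was the mitotic kinase CDK1 (log2 0.56). At 100 μM 35 of 35 were over 2-fold lower than in control cells, of which 34 were well above background on both arrays, with a median of log2 -2.63 against 0.10 over all genes. The survivin gene BIRC5 was the lowest (log2 -3.61, with signals of 16560, 12230 and 1145), followed by the mitotic cyclin CCNB2 (log2 -3.28) and PLK1 (log2 -3.28), and the CDK subunit CKS2 was the highest (log2 -1.62). MYBL2 and FOXM1 lay inside the range of their targets: 21 of the 35 were lower than MYBL2 and 11 were lower than FOXM1. All of the other 7 genes were above all 35.

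Among the E2F targets, 35 of 35 had a log2 fold change above 0 at 10 μM, 9 of them over 2-fold, with a median of 0.71. PCNA, the sliding clamp of replication and also a p53 target, was the highest (log2 2.06), followed by E2F2 (log2 1.74) and CCNE2 (log2 1.48), and the uracil glycosylase UNG was the lowest (log2 0.05). RBL1 and MYBL2, themselves E2F-driven genes, lay at log2 0.57 and 0.47, with 15 and 11 of the 35 below them. At 100 μM 27 of 35 were over 2-fold lower, with a median of log2 -1.67. The replication genes GINS2 (log2 -2.70), MCM10 (log2 -2.38) and MCM2 (log2 -2.22) were the lowest, and PCNA (log2 0.45) was the highest. No E2F target was lower than FOXM1 at 100 μM and 1 was lower than MYBL2, while 26 were lower than RBL1. The counts are read beside those of all genes given above and carry no test.

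**Figure D4:**
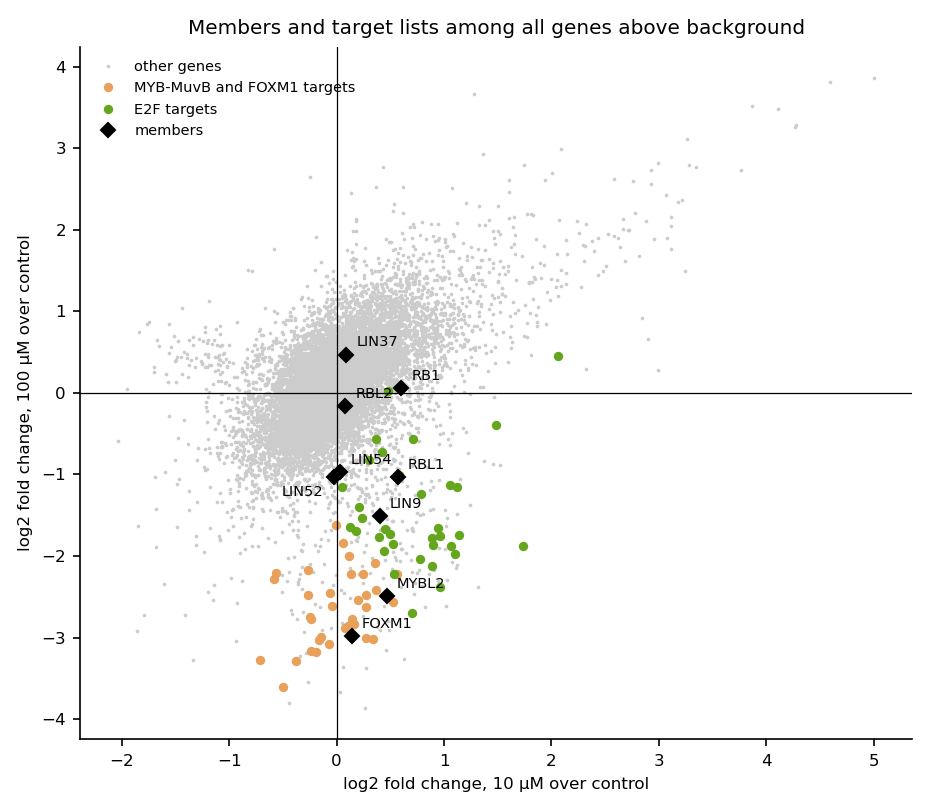
Log2 fold change over control at 10 μM (x axis) and 100 μM (y axis) for the genes well above background on all 3 arrays (grey), the MYB-MuvB and FOXM1 targets (orange), the E2F targets (green) and the 9 genes (black diamonds); both axes share the control array. MYBL2 and FOXM1 lie low on the y axis, inside the range of the MYB-MuvB and FOXM1 targets. RBL1 and LIN9 lie right of centre and moderately low, and RB1, RBL2 and LIN37 lie near 0 on the y axis.

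The genes nearest in pattern were named by the distance between their pairs of fold changes over control, among 12046 genes over 3 arrays, as a description of likeness only. Nearest to MYBL2 were KIAA0101, which encodes a PCNA-associated factor (distance 0.00481 log2 units), the spindle gene NUSAP1 (0.0898) and OIP5, a centromere gene (0.118). Nearest to FOXM1 were CCNA2 (0.118), DLGAP5, a spindle gene (0.134), and the mitotic kinesin KIF11 (0.136). Nearest to RBL1 were the maintenance DNA methyltransferase DNMT1 (0.0297), the centriole gene CENPJ (0.0605) and the helicase gene MCM8 (0.0633). Within 0.25 log2 units lay 9 genes for MYBL2, 9 for FOXM1 and 33 for RBL1, so the pattern of RBL1 was shared by more genes. The spot SDs of the members are of the size of these distances or larger, so the order among the named genes has no weight.

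The labelled cell type was checked against markers. All 10 hepatocyte markers, ALB and AFP among them, were well above background on all 3 arrays, and their summed signal ranged from 414300 to 453600. Of 6 fibroblast markers 0 passed that limit on every array, and of 4 endothelial markers 2 did. Among leukocyte markers, PTPRC gave 257.3 in control cells, 131.4 at 10 μM and 288.2 at 100 μM, and CD3E gave 46.8, 34.6 and 52.9. CD14, which liver cells also make, gave 520.6, 1184 and 1847. These 3 were well above background in every condition, and their part in the results was not tested.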

How the data were processed

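Total RNA of HepG2 cells was labelled with Cy3 and hybridised to 1 Agilent array per condition. The authors deposited the scanner output of Agilent Feature Extraction (version 10.7.3.1), in which the processed signal is an intensity with background subtracted and spatial trends removed by the software. Their series table held the same intensities at all 44495 spots of each array, so it carries no scaling between arrays. No spot was saturated.

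Here log2 intensities were computed, outlier spots were left out, spots of a probe were averaged, and the 75th percentile of each array, with each probe counted once, was subtracted. A gene is its probe with the highest mean. A fold change needed the brighter array well above background by the software's call, and a dimmer signal was raised to the lowest signal well above background (19.5, 22.7 and 21.6 on the control, 10 μM and 100 μM arrays), which makes the fold change a bound. Genes past 2-fold are counted without a test, since each condition has 1 array. The spot SD comes from the 50 repeated probes nearest in signal on the same array, and from the 10 spots of its own for RB1. The number of arrays limits the precision.

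Genes named are the 9 members, the genes of the lists on partners, MYB paralogs and kinases (those past 2-fold or near background by name), the highest and lowest of the target lists, and the 3 nearest patterns. The members and lists were chosen with earlier results of these data known. Symbols are those of the array design, and 2 list genes were matched through an older symbol. Alternatives were other scalings, normexp (limma 3.58.1, R 4.3.3) with an offset of 50, other probe rules and other thresholds. The code ran in Python 3.11.15 and was checked on simulated data. Some marker results are not reported here.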

Additional observations from a re-analysis of the deposited data

How the results depend on the processing

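Of 252 counts under the alternatives, 243 stayed within 1.5 times of the value reported and 9 moved. Many of the reported counts were 0 or a whole list, which few alternatives could change, so the 243 overstate how stable the other counts are. At a 1.5-fold threshold 1 member was higher and 1 MYB-MuvB and FOXM1 target was lower at 10 μM, and 19 E2F targets were higher. At a 3-fold threshold 2 members were lower at 100 μM and 2 E2F targets were higher at 10 μM. The 75th percentile over all spots left 3 members lower at 100 μM than in control cells. Normexp left 3 members lower at 100 μM than in control cells, 3 lower than at 10 μM, and 3 E2F targets higher at 10 μM. The offset draws dim signals together by its construction, and RBL1 and LIN52 came to log2 -0.42 and -0.23 at 100 μM over control. Of 324 member values, 239 moved by less than the spot SD and 85 by more, and the signs that turned were those of RB1 at 100 μM and LIN52 at 10 μM. No scaling, median scaling and spike-in scaling lowered all log2 fold changes at 100 μM over control by 0.25, 0.29 and 0.17. No paired analysis was possible because there was a single array per condition, and no spread between cultures was measured. At 100 μM RBL1 probe 2 was below the limit set by background.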
